A study of Drosophila melanogaster with 18 samples.

Results

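The ovary forms an eggshell around each oocyte. A set of 6 genes, named mucin-type and late eggshell genes, was followed here across 2 inbred lines of Drosophila melanogaster. The members were the mucin genes Muc4B and Muc12Ea, the mucin-related genes Mur11Da and Mur18B, the eggshell protein gene Femcoat and the eggshell protease gene ndl (nudel). The name of the set does not describe ndl, whose product acts on the vitelline membrane, the layer that is laid down first. They are 6 of the 17611 genes of the count table, and all 6 passed the filter on low counts that left 9037 genes to test. They had been picked because their transcripts appeared nearly absent from ovaries at 12 °C when set against ovaries at 25 °C. That comparison is therefore described below without a test, and no numeric threshold came with the choice. Poly-A RNA was sequenced in 18 libraries, with 3 biological replicates in each of 6 groups, from ovary material labelled as stages 1-7. Both lines were labelled WT, and each is 1 inbred genotype: LP stands for low plasticity and HP for high plasticity. For each line there were ovaries in diapause, an arrest of egg production, at 12 °C, ovaries labelled reproductive, also at 12 °C, and age-control ovaries of 28-day-old flies at 25 °C. How old the flies at 12 °C were is not given in the sources used here, and temperature cannot be told apart from any other difference between these flies and the age controls.

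The insect eggshell is secreted by the follicle cells that surround each oocyte. The vitelline membrane is laid down first, and the chorion, built from proteins such as Cp36 and Cp38 and then Cp15 and Cp18, follows late in oogenesis. Mucins are secreted or membrane-bound proteins with long stretches rich in serine, threonine and proline that carry many O-linked sugars. Such proteins are best known from gel-like linings, for example that of the gut, and genes with Mur symbols encode mucin-related proteins.

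Of the 6 genes, 5 lie on the X chromosome and all are protein-coding, with coordinates as the count table gives them. Muc4B (X, 4244095 to 4246139, minus strand, 2 exons) and Femcoat (X, 4241887 to 4242826, minus strand, 2 exons) are neighbours on the same strand, 1268 bases apart. Mur11Da (X, 12967888 to 12970056, plus strand) has 3 exons, Mur18B (X, 19213254 to 19214938, plus strand) has 2, and Muc12Ea (X, 14277735 to 14288161, plus strand) has 4. The coding sequence of Muc12Ea is the longest, with 3321 codons in the BDGP6.54 annotation, against 626 codons for Mur11Da, 496 for Muc4B, 481 for Mur18B and 201 for Femcoat. The last gene, ndl (3L, 6593938 to 6603366, minus strand, 15 exons), encodes 2616 codons.

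Total counts were 14352846 to 21343992 per library, and levels below are CPM, counts scaled to a common library size with TMM factors. The ovary markers vas, nanos, osk, grk, otu and tj summed to 1390 to 1690 CPM over all 18 libraries, so the labelled tissue was present throughout. The 9 chorion genes, which belong to stages later than those in the label, summed to 5630 to 7330 CPM in LP age controls and 3260 to 6370 CPM in HP age controls. After values were seen, 3 diapause or reproductive libraries were set apart for high levels of eggshell or fat body genes. In LP diapause replicate 2 the eggshell gene dec reached 956 CPM, against 78.8 and 99.8 CPM in the other replicates, and a list of 8 fat body genes summed to 42.7 CPM, against 1.92 and 8.62 CPM. In LP reproductive replicate 3 and HP reproductive replicate 3 the chorion genes summed to 1890 and 608 CPM, above the other replicates of these groups (335 and 1130 CPM for LP, 29.8 and 66.3 CPM for HP). The LP values were widely spread, with replicate 2 the lowest at 335 CPM, so replicate 3 was the highest but not the only distant library. Age controls were not more alike. In a chi-square comparison of replicate counts, the largest values per degree of freedom were in age controls. They were 44.5 for LP replicates 1 and 3 and 39.79 for HP replicates 1 and 2, against at most 13.97 in the other groups. Whether less of a transcript reflects fewer cells of a type or less RNA per cell cannot be told apart in bulk libraries.

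The mucin gene Muc4B had 0, 4 and 2 reads in the LP diapause libraries, 81, 9 and 722 in LP reproductive and 2826, 966 and 1120 in LP age-control libraries. In the HP line it had 0 reads in all 3 diapause libraries, 1, 2 and 227 in reproductive and 481, 971 and 774 in age-control libraries. The 12 °C libraries thus lay below the age controls of their line, but in each line 1 reproductive library, replicate 3, came near them. The level of Muc4B averaged 0.113 ± 0.109 CPM in LP diapause, 14.2 ± 20.1 in LP reproductive and 73.6 ± 49.0 in LP age-control ovaries (SD, n = 3 each). For HP the mean was 4.53 ± 7.71 CPM in ovaries labelled reproductive and 34.5 ± 10.9 CPM in age controls. By reads pooled over each group and scaled to depth, Muc4B was 653-fold lower in LP diapause than in LP age-control ovaries, and in HP diapause it was at least 553-fold lower than in HP age-control ovaries, taking 3 counts over the group as the floor. The LP ratio moved with single libraries. It was 408-fold without LP age-control replicate 1, which held 2826 reads, 420-fold without LP diapause replicate 1, and 1290-fold without LP diapause replicate 2, when 2 reads were left in LP diapause (95% counting interval 358 to 10700).

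Femcoat, which encodes a follicle cell protein needed for a normal chorion, was close to empty at 12 °C except in 1 library. It had 0, 1 and 1 reads in LP diapause, 2, 0 and 470 in LP reproductive and 750, 1402 and 1965 in LP age-control libraries. The HP libraries held 0, 1 and 1 reads in diapause, 0, 4 and 2 in reproductive and 523, 728 and 304 in age controls. The 470 reads of LP reproductive replicate 3 are thus nearly all of the 472 reads of Femcoat in that group. Femcoat was 1640-fold lower in LP diapause than in LP age-control ovaries (95% counting interval 454 to 13600) and 580-fold lower in HP diapause than in HP age-control ovaries (160 to 4790). These intervals cover counting error only.

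The mucin-related gene Mur11Da showed the same split. Its reads were 1, 0 and 0 in LP diapause, 5, 4 and 123 in LP reproductive and 127, 412 and 933 in LP age-control libraries. They were 0, 0 and 0 in HP diapause, 0, 0 and 1 in HP reproductive and 420, 300 and 136 in HP age-control libraries. LP reproductive replicate 3, at 6.34 CPM, lay within the range of the LP age controls (5.85, 18.9 and 38.6 CPM), so these LP groups overlapped. Mur11Da was 1170-fold lower in LP diapause than in LP age-control ovaries (95% counting interval 210 to 46400; 668-fold without LP age-control replicate 3), and at least 213-fold lower in HP diapause than in HP age-control ovaries.

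The long mucin gene Muc12Ea had 1, 0 and 0 reads in LP diapause, 2, 1 and 40 in LP reproductive and 102, 102 and 196 in LP age-control libraries. In HP it had 0, 0 and 0 reads in diapause, 10, 8 and 4 in reproductive and 216, 361 and 622 in age-control libraries. Muc12Ea was the gene with the most even trace in HP reproductive ovaries, where each replicate held a few reads and replicate 3 was the lowest. It was 319-fold lower in LP diapause than in LP age-control ovaries (95% counting interval 56.9 to 12600), and at least 298-fold lower in HP diapause than in HP age-control ovaries.

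**Figure D1:**
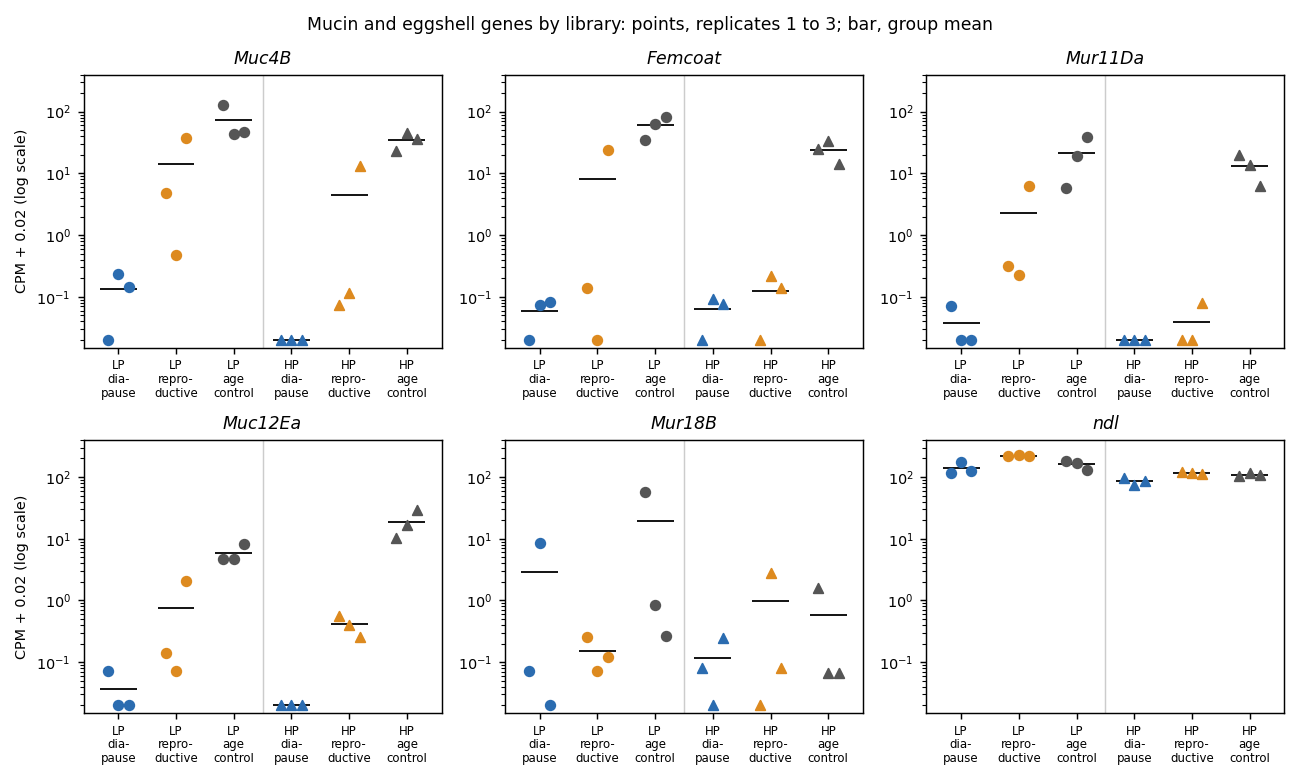
Level of each of the 6 genes in every library, as CPM with 0.02 added on a log axis. Points are replicates 1 to 3 from left to right and bars are group means, with circles for LP and triangles for HP and colours for diapause (blue), reproductive (orange) and age-control (grey) ovaries. Muc4B, Femcoat, Mur11Da and Muc12Ea are near the bottom of the axis in diapause, Mur18B is high in single libraries of several groups, and ndl stays at or above 75.3 CPM in all 18 libraries.

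The remaining genes, Mur18B and ndl, went against the description by which the set was picked. Transcripts of ndl were abundant at 12 °C in both lines, and Mur18B was nearly absent from most libraries at either temperature. Counting genes whose 3 libraries all lay below those of the age controls gave 4 of 6 for LP diapause (37% of all tested genes did so), 5 of 6 for HP diapause (34.7%), 4 of 6 for LP reproductive (36.7%) and 4 of 6 for HP reproductive ovaries (34%). The members were chosen on this contrast, so these counts carry no further weight. The fifth gene in HP diapause was ndl, which by pooled reads was 1.24-fold lower there than in HP age-control ovaries, and in LP reproductive ovaries all 3 libraries of ndl lay above the age controls (35.9% of tested genes did so).

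The protease gene ndl was lower in diapause than in reproductive ovaries, a comparison within 12 °C that did not enter the choice of genes. Its product is a large modular protein with a serine protease domain, which follicle cells secrete and which the embryo needs for its dorsoventral axis and the egg for a cross-linked vitelline membrane. Its level was 117, 172 and 124 CPM in LP diapause, 220, 226 and 219 CPM in LP reproductive and 183, 168 and 131 CPM in LP age-control ovaries. In HP it was 95.5, 75.3 and 86.5 CPM in diapause, 121, 116 and 111 CPM in reproductive and 102, 114 and 106 CPM in age-control ovaries. In each line the 3 diapause libraries lay below the 3 reproductive libraries. Over both lines ndl fell in diapause by a log2 fold of 0.56 ± 0.09 (SE) with an adjusted p of 0.00354 in edgeR's quasi-likelihood test, with 9.46% of tested genes called in that comparison and 1 of these 6. The call held in each of the 12 fits that left out 1 library.

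Taken by line, the fall of ndl was called in LP and not in HP, and the lines could not be shown to differ. In LP the log2 fold change was −0.69 (SE 0.13, adjusted p = 0.0283), 1 of 6 genes against 1.45% of all tested genes. This call was lost in 5 of the 6 fits without 1 of the libraries compared (log2 fold change −0.87 to −0.58, adjusted p up to 0.135), and also in the fit to these groups alone (adjusted p = 0.0971). In HP the log2 fold change was −0.43 (SE 0.13, adjusted p = 0.135), and 0 of the 6 genes were called against 0.852% of all tested genes. For HP, 1 of the 6 genes passed an unadjusted p under 0.05, as did 16.1% of all tested genes. DESeq2 called 3 of the 5 to which it gave an adjusted p (4.15% of all such genes), and the fit to these groups alone called ndl, the 1 gene of the 6 that passed the filter there (8.04% of its tested genes). The difference between the lines was −0.25 (SE 0.19, adjusted p = 1), in a comparison where 0 genes were called by edgeR (percent called 0), 366 genes passed an unadjusted p under 0.05 (4.05%, none of these 6) and DESeq2 called 6 genes (0.0665%), none of these 6.

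Muscle genes were higher in diapause, where ndl was lower. The summed level of 12 muscle genes was 1320 to 1650 CPM in LP diapause and 770 to 1150 CPM in LP reproductive ovaries, and 1540 to 1760 CPM in HP diapause and 1230 to 1320 CPM in HP reproductive ovaries. Over both lines 9 of the 12 muscle genes were called higher in diapause, as were 3.52% of all tested genes, and 0 lower. The haemocyte list held Hml, NimC1, Pxn, eater, He, Sr-CI, Col4a1, vkg and SPARC, and whether its sum follows haemocyte number was not tested. Its 9 genes summed to 1650 to 2250 CPM in LP diapause and 1470 to 1570 CPM in LP reproductive ovaries. In HP they summed to 2020 to 2520 CPM in diapause and 1820 to 2080 CPM in reproductive ovaries, so the HP ranges overlapped. Of the 6 tested, 1 (SPARC) was called higher. The 8 markers of early follicle and escort cells summed to 910 to 1020 CPM in LP diapause and 906 to 944 CPM in LP reproductive ovaries, and to 916 to 991 CPM in HP diapause and 915 to 921 CPM in HP reproductive ovaries. These ranges overlapped in both lines, and 1 of 8 was called higher (Fas2). The part of these values in the ndl result was not tested.

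**Figure D2:**
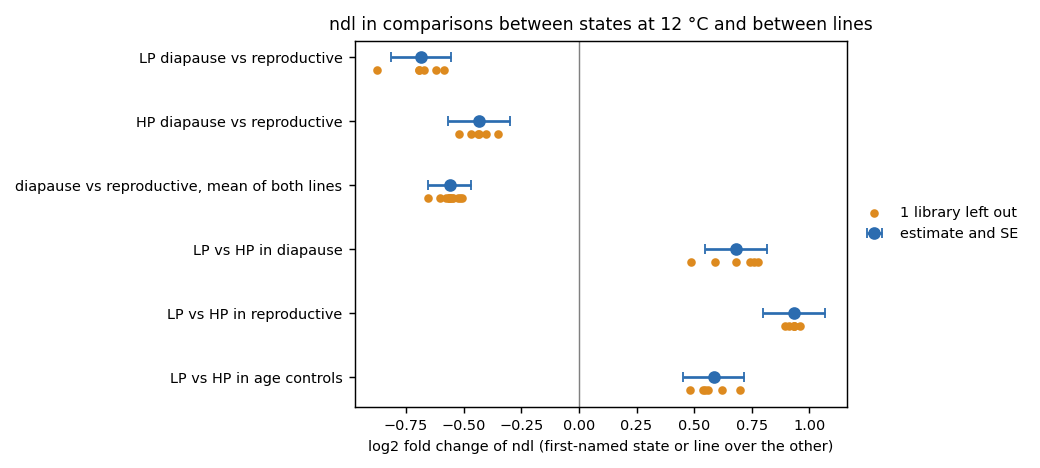
Log2 fold change of ndl in 6 comparisons, diapause over reproductive or LP over HP. Blue points and bars are the estimate and its SE from the fit to all 18 libraries, and orange points are fits that each left out 1 library of the groups compared. All fits lie below 0 for diapause over reproductive and above 0 for LP over HP.

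Of the other 5 genes edgeR called 0 between diapause and reproductive ovaries, in either line or over both lines. In LP reproductive ovaries replicate 3 held 722 of 812 reads of Muc4B, 470 of 472 of Femcoat, 123 of 132 of Mur11Da and 40 of 43 of Muc12Ea, and in HP it held 227 of 230 of Muc4B. Muc12Ea in HP was spread over all 3 reproductive libraries, and Mur18B, described further on, had most of its LP reads at 12 °C in a diapause library. At an unadjusted p under 0.05 they numbered 4 in LP, where 16.5% of all tested genes passed it, 0 in HP (16.1%) and 2 over both lines (26.4%). Femcoat was 229-fold lower in LP diapause than in LP reproductive ovaries by its 2 and 472 reads (95% counting interval 63.0 to 1890, adjusted p = 0.143). Mur11Da was 128-fold lower by its 1 and 132 reads (22.6 to 5090, adjusted p = 0.226), and 13.4-fold lower without LP reproductive replicate 3 (1.86 to 587). Muc4B was 131-fold lower in LP diapause (adjusted p = 0.206), or 22.3-fold without LP reproductive replicate 3, and at least 65.6-fold lower in HP diapause (adjusted p = 0.426). Muc12Ea was 41.7-fold lower in LP diapause by its 1 and 43 reads (7.09 to 1680, adjusted p = 0.213), and at least 6.28-fold lower in HP diapause (adjusted p = 0.353).

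For these genes the tools did not give the same calls. DESeq2 gave Muc4B an adjusted p of 0.00604 in LP and 0.00341 in HP, Muc12Ea 0.0257 in LP and 0.0416 in HP, and in LP Femcoat 0.00437 and Mur11Da 0.00728. In LP it called 5 of the 5 genes with an adjusted p, against 5.48% of all such genes. Over both lines it called 5 of 5, against 15.7%, and gave Mur18B no adjusted p. Without LP reproductive replicate 3, Femcoat had 2 reads in each of the LP states at 12 °C. Genes whose 3 diapause libraries all lay below the 3 reproductive libraries were Muc4B, Mur11Da and ndl in LP (3 of 6, against 12.7% of tested genes) and Muc4B, Muc12Ea and ndl in HP (3 of 6, against 14.4%). These genes entered the test through their age-control levels, and at 12 °C most libraries held fewer than 10 reads of them.

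A pair of reproductive libraries had Muc4B with only 2 reads of Femcoat. In HP reproductive replicate 3 the level of Muc4B was 13.4 CPM while Femcoat stood at 0.12 and Mur11Da at 0.06 CPM. In LP reproductive replicate 1 Muc4B was at 4.85 and Femcoat at 0.12 CPM, whereas in LP reproductive replicate 3 they were at 37.2 and 24.2 CPM. Cp36 and Cp38 differed from Cp16 and Cp18 in a similar way across these libraries, and Cp15 did not follow Cp18. HP reproductive replicate 3 had 289 CPM of Cp38 and 226 CPM of Cp36 but 0.592 CPM of Cp18 and 0.887 CPM of Cp16. LP reproductive replicate 1 had 187 CPM of Cp38 and 19.9 CPM of Cp18, and LP reproductive replicate 3 had 470 and 383 CPM. Cp15 was at 23.9 CPM in HP reproductive replicate 3, against 1.36 and 2.28 CPM in the other replicates, and at 30.9 and 274 CPM in LP reproductive replicates 1 and 3.

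The LP age controls also differed among themselves in this way. LP age-control replicate 1 had the most Muc4B of all libraries (130 CPM) with 2820 CPM of Cp38, but 26 CPM of Cp18, 34.5 CPM of Femcoat and 5.85 CPM of Mur11Da. LP age-control replicate 3 had 46.3 CPM of Muc4B and 687 CPM of Cp38, with 1260 CPM of Cp18, 81.2 CPM of Femcoat and 38.6 CPM of Mur11Da. Muc4B and Cp38 were thus higher in LP replicate 1, and Femcoat, Mur11Da and Cp18 in LP replicate 3. The HP age controls showed such a split of Muc4B from Femcoat only in part. HP age-control replicate 2 had the most of both genes in its group, at 44.6 CPM of Muc4B and 33.4 CPM of Femcoat. Against HP age-control replicate 3, replicate 1 had less Muc4B (481 against 774 reads). It had more Femcoat (523 against 304 reads) and Mur11Da (420 against 136 reads). Cp15 was even over the LP age controls (1410, 1690 and 1590 CPM).

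**Figure D3:**
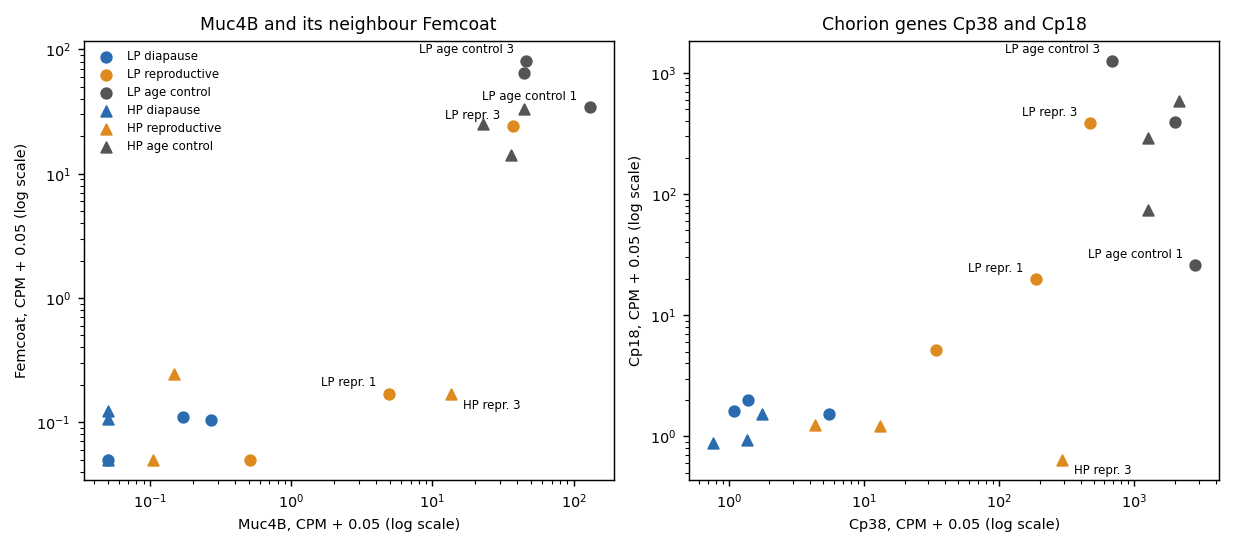
Level of Femcoat against its neighbour Muc4B (left) and of the chorion gene Cp18 against Cp38 (right) in the 18 libraries, as CPM with 0.05 added on log axes. Circles are LP and triangles HP, and libraries named in the text are labelled. HP reproductive replicate 3 has Muc4B (13.4 CPM) with little Femcoat (0.12 CPM), and Cp38 (289 CPM) with little Cp18 (0.592 CPM).

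Likeness between genes was measured as the root mean square difference of log2 CPM over the 18 libraries, each profile centred on its mean. For Muc4B the closest named gene was yellow-g, which encodes an eggshell protein of follicle cells (difference 0.646), followed by Cp38 (0.996) and Cp15 (1.09). Among named genes Femcoat was the closest to Mur11Da and Mur11Da to Femcoat (0.991), and the chorion gene Cp7Fa came next for both (1.07 for Mur11Da and 1.40 for Femcoat). Over all 9036 other tested genes, Femcoat ranked 5 for Mur11Da and Mur11Da ranked 3 for Femcoat. The neighbours Muc4B and Femcoat differed by 1.78, which placed Femcoat at rank 22 for Muc4B and Muc4B at rank 19 for Femcoat. Libraries that hold late eggshell transcripts are shared by all these profiles, and the low values rest on few reads. The members were picked on the contrast with age controls, which is part of these profiles. Closeness between members, here and for Muc12Ea below, was thus in part built in by the choice and carries no further weight.

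Muc12Ea was closest to Mur11Da among named genes (1.33), then to nAChRbeta1, a nicotinic acetylcholine receptor subunit (1.44), and Ilp8, an insulin-like peptide made in mature follicles (1.46). The unnamed gene CG15721 was closer still (1.10). For ndl the closest were the insulin-binding protein gene ImpL2 (0.207), the yolk protein gene Yp1 (0.209) and the ecdysteroid synthesis gene spo (0.222). Of these Yp1 also fell in diapause over both lines, with a log2 fold change of −0.68 ± 0.14 (SE, adjusted p = 0.0119), and ImpL2 had a log2 fold change of −0.39 ± 0.13 (SE, adjusted p = 0.0569).

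**Figure D4:**
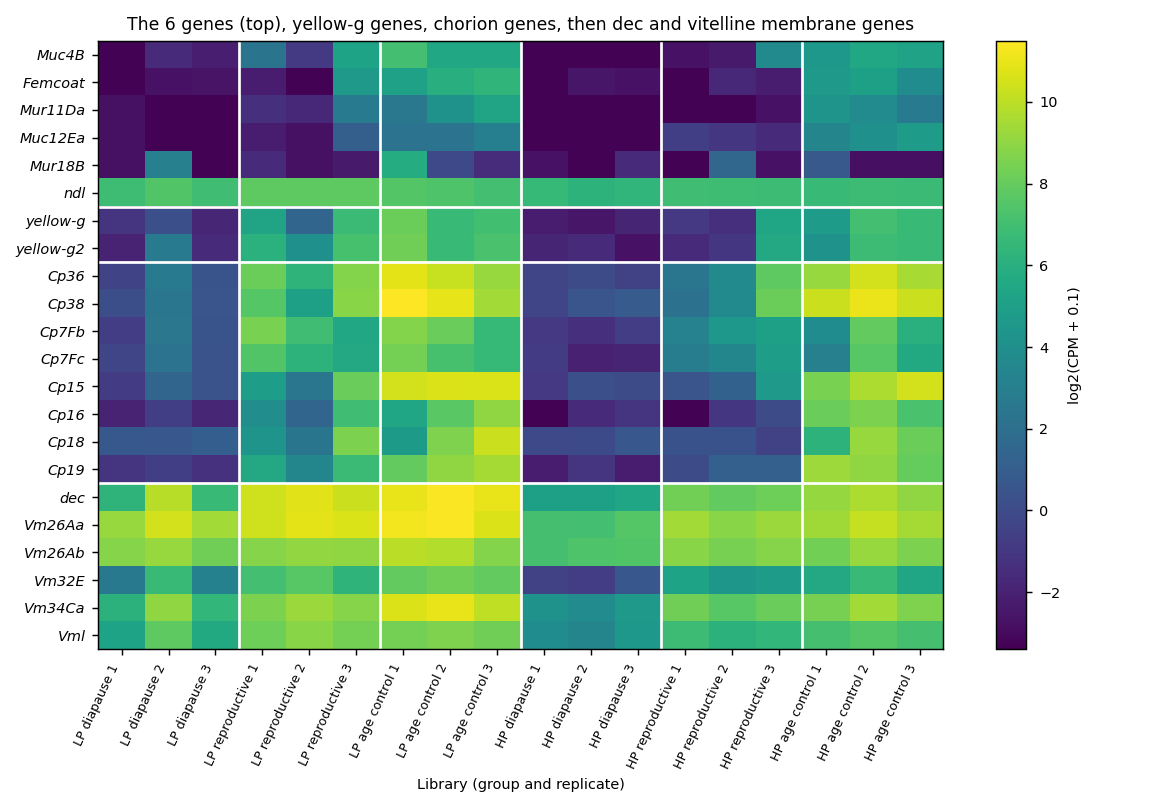
Levels as log2(CPM + 0.1) in the 18 libraries (columns, by group and replicate) of the 6 genes, the yellow-g genes, chorion genes, and dec with vitelline membrane genes (rows). Muc4B, Femcoat, Mur11Da and Muc12Ea are dark in diapause like the chorion genes, and ndl is bright in every library. LP diapause replicate 2 is brighter than its group for dec (956 CPM) and Vm34Ca (528 CPM).

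The mucin-related gene Mur18B followed neither state nor temperature. It had 1, 156 and 0 reads in LP diapause, 4, 1 and 2 in LP reproductive and 1220, 18 and 6 in LP age-control libraries. In HP it had 1, 0 and 4 reads in diapause, 0, 58 and 1 in reproductive and 33, 1 and 1 in age-control libraries. In every group 1 library held most of the reads, and in 4 groups that library had over 30 reads, at 8.50 CPM in LP diapause replicate 2, 56.2 CPM in LP age-control replicate 1, 2.81 CPM in HP reproductive replicate 2 and 1.57 CPM in HP age-control replicate 1. No comparison of Mur18B was called, and its log2 fold change of diapause over reproductive in LP (4.44, SE 2.92, adjusted p = 0.486) turned negative without LP diapause replicate 2, when 1 read remained in LP diapause and 7 in LP reproductive ovaries.

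The closest named genes to Mur18B were the organic anion transporter gene Oatp58Dc (1.15), the cytochrome P450 gene Cyp6a18 (1.37) and the UDP-glycosyltransferase gene Ugt35C1 (1.77). Oatp58Dc had 62 reads in LP diapause replicate 2, 83 in LP age-control replicate 1 and 21 in HP reproductive replicate 2, and 0 or 1 in every other library. Cyp6a18 had 47, 65 and 14 reads in these libraries, and at most 5 in any other. The 9 genes of a Malpighian tubule list, drawn up after this likeness was seen and holding Oatp58Dc itself, summed to 15.4 CPM in LP diapause replicate 2 and to 15.4 CPM in LP age-control replicate 1, the highest sums of the 18 libraries. These were the libraries with the most Mur18B, and in each 1 of the 9 genes was at 0. In the other libraries the sum was 4.73 to 10.8 CPM, with 3 to 7 genes at 0, and HP reproductive replicate 2 had 7.65 CPM. The potassium channel gene Irk1 gave 7.74 and 6.45 CPM of the highest sums and Oatp58Dc 3.38 and 3.82 CPM. The gene at 0 was the receptor gene CapaR in LP diapause replicate 2 and Uro, a urate oxidase gene of the tubule, in LP age-control replicate 1. The 7 midgut enzyme genes summed to at most 0.618 CPM in any library. The part of tissue other than ovary in the Mur18B reads was not tested.

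**Figure D5:**
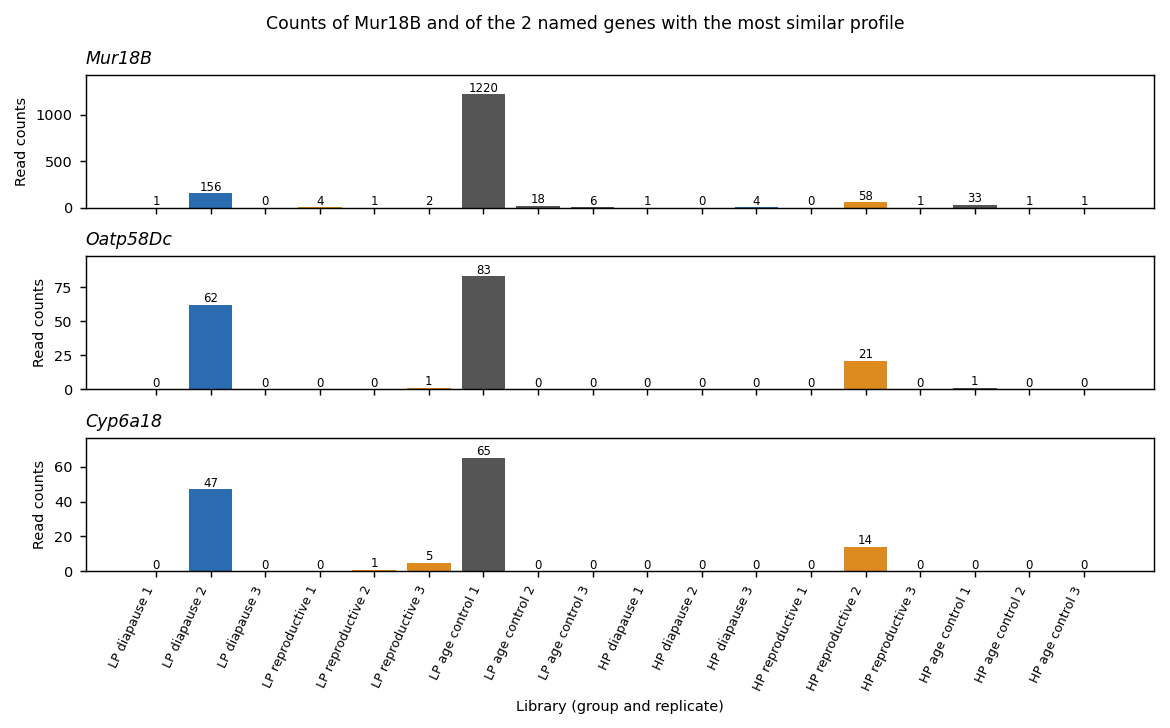
Reads of Mur18B and of the 2 named genes with the closest profile, Oatp58Dc and Cyp6a18, in the 18 libraries, on linear axes that start at 0. The same 3 libraries, LP diapause replicate 2, LP age-control replicate 1 and HP reproductive replicate 2, hold the most reads of Oatp58Dc (62, 83 and 21) and Cyp6a18 (47, 65 and 14), and of Mur18B (156, 1220 and 58).

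The lines differed in ndl in every state. The log2 fold change of LP over HP was 0.68 in diapause (adjusted p = 0.00103), 0.93 in reproductive (adjusted p = 5.33e-05) and 0.58 in age-control ovaries (adjusted p = 0.00208), each with an SE of 0.13. In each state the 3 LP libraries lay above the 3 HP libraries, as they did for 24.3% of tested genes in diapause, 27.8% in reproductive and 22.7% in age-control ovaries, and the call held in all 6 fits that left out 1 of those libraries. Differences between the lines were common: 32.6% of tested genes were called in diapause, 35.1% in reproductive and 41.9% in age-control ovaries, against 1, 2 and 2 of these 6 genes. The muscle genes summed to 1320 to 1650 CPM in LP and 1540 to 1760 CPM in HP diapause, to 770 to 1150 CPM in LP and 1230 to 1320 CPM in HP reproductive, and to 683 to 880 CPM in LP and 279 to 399 CPM in HP age-control ovaries. The haemocyte genes summed to 1650 to 2250 CPM in LP and 2020 to 2520 CPM in HP diapause, to 1470 to 1570 CPM in LP and 1820 to 2080 CPM in HP reproductive, and to 379 to 556 CPM in LP and 792 to 1030 CPM in HP age-control ovaries. These sums hide opposite directions in age controls, where 2 of 6 tested haemocyte genes were called higher in LP and 3 lower. Pxn (log2 fold change 1.67) and Hml (1.18) were higher, and Col4a1 (−1.09) and vkg (−0.93) were among the lower. The part of the muscle and haemocyte values in the difference of ndl between lines was not tested.

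The second gene called in age controls was Muc12Ea, which was lower in LP. Its level was 4.70, 4.68 and 8.10 CPM in LP and 10.3, 16.6 and 29.0 CPM in HP age-control libraries. The log2 fold change was −1.67 with an SE of 0.60 and an adjusted p of 0.0415. All 3 LP libraries lay below all 3 HP libraries, as for 23.4% of tested genes, but the call was kept in 2 of the 6 fits that left out 1 library and was not made by DESeq2 (adjusted p = 0.193). Without HP age-control replicate 3, the highest at 29.0 CPM, the log2 fold change was −1.21 (adjusted p = 0.18). Muc12Ea overlaps CG9400 on the other strand by 78 bases, and CG9400 was at 0.839 CPM or less in every age-control library.

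The other genes gave 1 further call between lines, and it rested on 1 library. Femcoat was called higher in LP than in HP reproductive ovaries, 472 reads against 6 (79.0-fold, adjusted p = 0.036), but without LP reproductive replicate 3 the LP group held 2 reads and the adjusted p was 0.823. Mur11Da, with 132 reads in LP and 1 in HP reproductive ovaries, missed the threshold (adjusted p = 0.0662), as did Mur18B in age controls with 1244 reads in LP and 35 in HP (adjusted p = 0.068). Muc4B averaged 73.6 ± 49.0 CPM in LP and 34.5 ± 10.9 CPM in HP age controls (SD, n = 3 each), a log2 fold change of 1.09 with an SE of 1.09 (adjusted p = 0.464). Femcoat averaged 60.0 ± 23.6 CPM in LP and 24.2 ± 9.65 CPM in HP age controls, where the LP libraries lay above the HP libraries (34.5, 64.3 and 81.2 against 24.9, 33.4 and 14.2 CPM), with a log2 fold change of 1.31 (1.02 to 1.61 without 1 library) and an adjusted p of 0.256.

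Per kilobase of exon the order of the 6 genes differed between age controls and the groups at 12 °C. The members were chosen on this contrast, so the change of order carries no further weight. In LP age-control ovaries the level per length was 72.0 ± 28.4 CPM per kb for Femcoat, 37.0 ± 24.7 for Muc4B, 19.5 ± 3.24 for ndl, 11.8 ± 19.9 for Mur18B, 10.5 ± 8.19 for Mur11Da and 0.572 ± 0.194 for Muc12Ea (SD, n = 3 each). Neighbours in this order differed by less than the sum of their SDs, except Mur11Da and Muc12Ea. In HP age-control ovaries it was 29.0 ± 11.6 for Femcoat, 17.4 ± 5.5 for Muc4B, 13.0 ± 0.781 for ndl, 6.65 ± 3.40 for Mur11Da, 1.83 ± 0.935 for Muc12Ea and 0.344 ± 0.546 for Mur18B. Here Femcoat and Muc4B, and Muc4B and ndl, differed by less than the sum of their SDs. At 12 °C ndl ranked first by mean in all 4 groups, at 16.7 ± 3.62 in LP diapause, 26.9 ± 0.431 in LP reproductive, 10.4 ± 1.23 in HP diapause and 14.1 ± 0.637 in HP reproductive ovaries. The other genes averaged at most 9.74 CPM per kb there, the value of Femcoat in LP reproductive ovaries with an SD of 16.7. In LP reproductive replicate 3 alone, Femcoat was at 29.1 CPM per kb and ndl at 26.6.

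Of the 5 genes within 10 kb of Mur11Da, 3 had profiles near its own, at rank 12 (CG32642), 13 (CG15721) and 15 (CG12716) of 9036 by the measure of likeness. The nearest, asRNA:CR43636 at 419 bases on the other strand, had 0 reads in all 18 libraries, and asRNA:CR43152 had at most 15. CG15721 starts 654 bases downstream on the same strand. CG15721 was at 1.82, 3.22 and 0.672 CPM in LP diapause, 5.99, 8.83 and 13.1 in LP reproductive and 61.9, 65.6 and 80.1 in LP age-control ovaries. In HP it was at 0.838, 0.809 and 1.20 CPM in diapause, 3.05, 2.71 and 3.85 in reproductive and 52.6, 45.5 and 84.1 in age-control ovaries. Groups did not overlap within a line, and CG15721 had a log2 fold change of −2.27 ± 0.43 (SE) in LP diapause over LP reproductive ovaries (adjusted p = 0.0334) and of −1.72 ± 0.59 (SE) in HP (adjusted p = 0.18). CG32642 reached 31.9 CPM in LP reproductive replicate 3 and 3.77 CPM in replicate 1, which were also the LP reproductive libraries with the most Muc4B. At 4458 bases from ndl on the same strand, jv, a gene of bristle shape, had a log2 fold change of −1.72 in LP diapause over LP reproductive ovaries (SE 0.24, adjusted p = 0.00233). In HP its log2 fold change was −0.11 (SE 0.24, adjusted p = 0.859), and the difference between the lines was not called (adjusted p = 0.401). Genes nearer to ndl differed less between these LP groups. Mean levels in LP diapause and LP reproductive ovaries were 35.7 and 40.9 CPM for MCU, which overlaps ndl by 3 bases. They were 141 and 127 CPM for Rexo5 (317 bases away), and 258 and 257 CPM for zpg (999 bases away). These neighbours were picked by distance and named after their values were seen.

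Other mucin genes were mostly silent. Of the 19 genes with Muc or Mur symbols, 15 were not among the 6, and 12 of those 15 failed the filter, with at most 12 reads in any library. The 3 tested were Mur2B, Muc11A and Muc68Ca. Mur2B was at 44.2, 54.9 and 55.2 CPM in LP diapause and 98.7, 69.1 and 132 CPM in LP reproductive ovaries, and over both lines its log2 fold change was −0.70 (SE 0.21, adjusted p = 0.0521). Muc68Ca was called higher in LP than in HP, by 1.18 on the log2 scale in diapause (adjusted p = 0.0403) and by 1.19 in age-control ovaries (adjusted p = 0.0444). In reproductive ovaries its log2 fold change was 0.70 (adjusted p = 0.182). Muc18B, 576 bases downstream of Mur18B, was at 0.092 CPM or less in every library.

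Among related gene lists, many chorion and vitelline membrane genes were lower in diapause than in reproductive ovaries. Over both lines, where 5.94% of all tested genes were called lower and 3.52% higher, 6 of 9 chorion genes were lower and 0 higher (median log2 fold change −5.13, against 0.01 for all tested genes). Examples were Cp36 (−6.62, SE 1.14, adjusted p = 0.00684) and Cp38 (−6.39, SE 1.23, adjusted p = 0.0103). The median of the 6 genes, −4.31, was set by Femcoat (−4.40, SE 4.24, adjusted p = 0.564) and Mur11Da (−4.22, SE 6.14, adjusted p = 0.722). In HP these had 2 and 0 reads in diapause and 6 and 1 in reproductive ovaries, so this median is not a measured shift of the set. Of 10 vitelline membrane genes 6 were lower and 0 higher (median −1.51), among them Vm32E (−3.43, SE 0.78) and Vm34Ca (−2.40, SE 0.48). Of the 6 other eggshell genes 4 were lower, among them yellow-g (−6.61, SE 1.75) and dec (−2.47, SE 0.53). Whether these shares differ from the 1 of 6 above was not tested. For the chorion genes, as for Muc4B, most reads at 12 °C came from reproductive libraries of LP and from HP reproductive replicate 3. For Femcoat most came from LP reproductive replicate 3 (470 reads), and HP reproductive replicate 3 held 2.

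The dorsoventral genes that act with ndl had smaller fold changes than the eggshell genes. They comprise the protease genes gd, snk and ea, the ligand gene spz and its receptor gene Tl, and pip, which follicle cells of the ventral side express. Over both lines 3 of 10 were called lower in diapause, which were ndl, Tl (−0.32, SE 0.08, adjusted p = 0.0159) and spz (−0.26, SE 0.06, adjusted p = 0.0124), and 0 were higher (median −0.21). The enzymes that add O-linked sugars to mucins, of which 8 of the 12 found were tested, had 1 higher and 4 lower. Pgant2 was higher in diapause by 0.57 (SE 0.11, adjusted p = 0.00432), and Pgant6 (−0.20), C1GalTA (−0.19), Pgant7 (−0.14) and Pgant5 (−0.13) were lower. Of the 10 genes of mature follicles and ovulation 1 was lower, Oamb, an octopamine receptor (−0.68, SE 0.18, adjusted p = 0.026). Of the ovary markers otu (−0.27) and nanos (−0.51) were lower and grk (0.25) was higher, and of the oviduct and spermatheca list 1 of 2 tested was lower, Hr39 (−0.21). Of the fat body list 0 of 2 tested were called, and of the tubule list 0 of 4.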

How the data were processed

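The authors deposited raw read counts per gene (whole numbers, 17611 genes in 18 libraries, not normalised, replicates not pooled), in the layout of featureCounts per the file headers. Tools listed in the submitters' processing notes are DESeq2, featureCounts, STAR and Trimmomatic. Versions, genome build, use of strand and treatment of reads with several matches are not given in the sources used here, so overlapping genes and repeats within mucin genes are uncertain. Whether sequence differences between the lines changed their counts was not examined. Libraries used a directional poly-A kit, per the labels' protocols.

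Symbols came from BDGP6.54 by gene identifier (17556 matched, 17540 of them with the same coordinates). TMM scaling, filterByExpr and a robust quasi-likelihood fit of edgeR 4.0.16 (R 4.3.3, limma 3.58.1) to all 18 libraries, with 1 mean per group, left 12 residual degrees of freedom. Genes were called at a Benjamini-Hochberg adjusted p under 0.05 over the 9037 genes. Every adjusted p comes from it where no other tool is stated. DESeq2 1.42.0 was an alternative. The fit was checked on simulated counts. Replicates are described as biological in the labels, and p-values set differences between group means against the spread between replicates. Each line is 1 inbred genotype, so p-values for LP against HP do not cover variation among lines of low or high plasticity. Replicate numbers were not used to pair the samples, as the labels name no pairing.

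The 6 genes, the lists and the comparisons were chosen with earlier results of these data known. The tubule, midgut and ovary marker lists, the neighbours and the exclusion of 3 libraries followed after values were seen. Named genes were the 6, up to 4 called genes per list with the largest change, the 3 closest profiles with a gene name, and the tested Muc and Mur genes. Of 130 listed symbols 2 were not found. Levels use 3 counts over a group as the floor.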

Additional observations from a re-analysis of the deposited data

How the results depend on the processing

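Of the values recomputed for single genes, 573 kept direction and call, 17 lost and 18 gained a call, 25 turned direction and 10 descriptions moved, and the cause was not tested. Reads of most of these genes at 12 °C were too few to set a fold. Of the 5 genes with an adjusted p, DESeq2 called 3 in HP, 5 in LP and 5 over both lines. The shares of all such genes were 4.15%, 5.48% and 15.7%. Between lines in age controls DESeq2 called 1 of these genes. In the fit to the groups alone, ndl was the 1 gene of the 6 to pass the filter in HP and in LP. That fit called 1 in HP (8.04% of its tested genes), 0 in LP and 1 between lines in reproductive ovaries. Testing without a filter called 1 between lines in age-control and in reproductive ovaries. The main fit called 41.9% of tested genes between lines in age-control and 35.1% in reproductive ovaries. For all genes, HP diapause against reproductive gave 77 calls, but 48 without a filter, 117 with total counts, 317 with DESeq2 and 663 from these groups alone. LP gave 131, but 447 with DESeq2 and 290 alone. Both lines gave 855, but 1638 alone, and their difference gave 0, but 6 with DESeq2. With total counts the share of calls that were higher was 13.2% against 23.7% in LP, 18.3% against 37.2% over both lines and 62.1% against 47.6% between lines in age controls, and the median gene moved by −0.228 to −0.109 (log2) for 12 °C against 25 °C.

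Leaving out 1 library gave 7 to 45 calls in HP, 6 to 247 in LP (6 without LP diapause replicate 3), 378 to 906 over both lines and 0 to 1 for the line difference. Of the 6 genes it called 0 to 1 in LP, 1 to 2 over both lines, and 1 to 3 between lines in age-control and in reproductive ovaries. Between lines, all genes gave 3284 to 3842 calls in age-control and 2270 to 2696 in reproductive ovaries. Apart from Mur11Da in age controls, the log2 fold changes that turned sign belonged to genes whose reads in a group came largely from 1 library. Mur11Da had 127, 412 and 933 reads in LP and 420, 300 and 136 in HP age-control libraries. For Mur18B the ranges were −4.69 to 1.66 in HP, −1.94 to 5.11 in LP and −2.57 to 3.05 over both lines for diapause against reproductive ovaries, with −0.13 without HP diapause replicate 3. Between lines they were −1.68 to 6.18 in diapause, −3.62 to 1.92 in reproductive and −0.054 to 8.49 in age-control ovaries. Against age controls they were −3.83 to 1.06 in HP diapause, −9.11 to 2.42 in LP diapause and −3.99 to 4.26 in HP reproductive ovaries. Between lines in reproductive ovaries Muc4B ranged over −0.76 to 7.42, Muc12Ea over −2.17 to 1.51 and Femcoat over −0.89 to 7.02, and in age controls Mur11Da ranged over −0.13 to 1.11. The line difference ranged over −3.24 to 4.93 for Muc4B, −0.94 to 4.10 for Muc12Ea (−0.16 with DESeq2) and −7.17 to 0.73 for Femcoat.

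Leaving out the 3 libraries set apart, an alternative added after seeing the data, gave 27 calls in HP and 414 over both lines. It gave 1 for the line difference and 1965 between lines in reproductive ovaries, with 1 of the 6 genes called in the last. It turned Mur18B (−2.08 in LP, −2.90 over both lines, −1.69 between lines in diapause), Femcoat (−0.82) and Muc12Ea (−2.39) between lines in reproductive ovaries, and the line difference of Muc4B (−1.66) and Femcoat (0.33).

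Same-numbered libraries deviated together with correlations of −0.137 to 0.164, and 2 of 27 pairs were over 0.1. The highest was between replicates 1 of LP diapause and LP reproductive ovaries. Differently numbered libraries were not compared, and whether same-numbered libraries shared a batch was not tested. A replicate block gave 56 calls in HP, 110 in LP and 936 over both lines, with 0, 1 and 1 of the 6 genes.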
